A study of Mus musculus with 7 samples.

Results

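The forkhead factors are transcription factors that share a winged-helix DNA-binding domain, and the regions described here are the accessible chromatin regions nearest to the genes that encode them. All GRCm38 protein-coding genes whose symbol is Fox, a letter from a to s and a number were taken except Foxp1, which gave 43 of 21627 protein-coding genes: 3 Foxa genes and 40 others. A region belonged to a gene when its summit was nearest to that gene's span and no more than 50 kb from it. By this rule these genes held 498 of the 140286 untreated regions, and 458 of 164684, 435 of 145337 and 426 of 130149 regions in the lists of days 1, 7 and 28. The rule itself uses gene symbols and positions only.

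Chromatin accessibility had been profiled by ATAC-seq, in which the transposase Tn5 cuts open DNA, in epithelial cells purified from digested pancreata of C57BL/6J wild-type mice. The mice were untreated, or were taken at day 1, 7 or 28 after caerulein, a cholecystokinin analogue that provokes an acute pancreatitis which then resolves. Each of these 4 groups was 1 library with 1 peak list, so no difference below has a replicate check and no p-value was computed. The number of animals behind each library is not given in the sources used here, and the 3 libraries of DCLK1-positive cells, from Dclk1-DTR-ZsGreen mice, were not analysed here.

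Foxa1, Foxa2 and Foxa3 encode the forkhead pioneer factors of endoderm, which can bind their sites in compacted chromatin and help open it for other factors. Foxa1 and Foxa2 act together in the outgrowth and differentiation of the mouse pancreas, and Foxa2 acts upstream of Pdx1. FOXO factors are held in the cytoplasm when PI3K and AKT signal, whereas many other forkhead genes belong to mesenchyme, vessels, ciliated cells, thymus or brain.

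The lists were not equally deep or equally enriched. The background pileup, a measure that tracks depth and was recovered from the peak fields, was 5.07 for untreated epithelium and 5.35, 2.72 and 2.52 for days 1, 7 and 28. The median of fold enrichment minus 1 in regions that all lists held was 7.40, 16.6, 15.1 and 11.5 in the same order. Fold enrichments are the authors' own values, each relative to its own library's background; they are set side by side here and are not a comparison between libraries. Of 15 acinar marker genes, 15 had a region in the untreated list and 9, 15 and 15 at days 1, 7 and 28, and their regions numbered 202, 36, 112 and 211. Fibroblast marker genes had 172, 343, 273 and 199 regions, and endothelial ones 189, 160, 184 and 126. Duct marker genes had 144, 119, 164 and 142 regions, endocrine ones 81, 103, 88 and 86, with Iapp at 0 throughout, and tuft ones 104, 154, 129 and 107. Leukocyte marker genes had 21, 36, 24 and 15 regions, with Cd8a and Adgre1 at 0 in every list. In such bulk samples, fewer cells of a type and less accessibility per cell cannot be told apart.

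Promoter windows, which run from 250 bases before to 50 bases after an annotated start, are shown for 3 genes. The Foxa1 window was open in all 4 lists and is the only Foxa window with the forkhead motif, and the windows of Foxd3 and Foxb2 are the forkhead windows in which a peak was present in some lists and absent from others. The sequences are from RefSeq for GRCm38.p6, 5′ to 3′ on the strand of the gene. The Foxa1 window is chr12:57546062-57546361 on the minus strand, the Foxd3 window chr4:99656049-99656348 on the plus strand and the Foxb2 window chr19:16873781-16874080 on the minus strand. Capitals mark a match to the forkhead motif TGTTTAC or its reverse complement.
Foxa1: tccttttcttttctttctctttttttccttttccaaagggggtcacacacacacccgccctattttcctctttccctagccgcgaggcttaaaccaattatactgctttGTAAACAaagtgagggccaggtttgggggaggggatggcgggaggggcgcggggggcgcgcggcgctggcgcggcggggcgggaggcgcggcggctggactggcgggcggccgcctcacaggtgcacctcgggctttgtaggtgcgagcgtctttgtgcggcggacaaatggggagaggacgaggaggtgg
Foxd3: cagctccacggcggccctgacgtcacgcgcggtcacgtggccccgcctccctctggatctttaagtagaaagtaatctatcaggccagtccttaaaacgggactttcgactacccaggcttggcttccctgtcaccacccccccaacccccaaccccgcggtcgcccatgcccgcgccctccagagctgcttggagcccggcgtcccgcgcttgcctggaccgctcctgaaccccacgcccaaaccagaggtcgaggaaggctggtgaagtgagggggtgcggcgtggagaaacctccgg
Foxb2: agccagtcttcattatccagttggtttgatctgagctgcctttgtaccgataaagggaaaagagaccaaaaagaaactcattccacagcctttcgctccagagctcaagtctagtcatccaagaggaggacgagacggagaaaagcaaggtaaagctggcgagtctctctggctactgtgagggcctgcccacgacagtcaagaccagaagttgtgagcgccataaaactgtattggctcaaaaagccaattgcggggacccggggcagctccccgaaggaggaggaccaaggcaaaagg

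Each window was searched on both strands for the forkhead motif TGTTTAC, the AP-1 motif TGANTCA, the motif GATAAG of GATA factors and the NR5A motif CAAGGTCA, each counted by itself; none of them contains another. The Foxa1 window held 1 forkhead match and none of the other motifs, and the Foxd3 and Foxb2 windows held none of the 4. Over 21036 promoter windows in the reference, 638 (3.03%) held the forkhead motif, 1481 (7.04%) the AP-1 motif, 1462 (6.95%) the GATA motif and 272 (1.29%) the NR5A motif. A match is a description of the letters only.

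The windows of all 3 Foxa genes overlapped a peak in every list, also at day 1. The peak over the Foxa1 window had a fold of 11.2 in the untreated list and 11.0, 15.0 and 23.0 at days 1, 7 and 28, and in the untreated list the edge of a separate upstream peak of fold 18.3 reached the window as well. Of the 40 other forkhead genes, 24 had a window in the reference, and 13 of these (54.2%) overlapped a peak in untreated epithelium. The numbers were 14 (58.3%), 14 (58.3%) and 12 (50%) at days 1, 7 and 28. Over 17273 protein-coding genes with a window the shares were 64.5%, 64.8%, 65.2% and 63.7%. The same 12 other forkhead windows were covered in all 4 lists and 10 in none. Near either end of the gene span, 31 of the 40 other genes had a peak in all 4 lists. The uncovered Foxn3 window lies inside its span, whose upstream end had peaks of fold 34.1, 49.3, 52.9 and 62.4.

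Foxd3, a neural crest factor, had no peak over its window in the untreated list or at day 28, one of fold 8.51 at day 1 and one of fold 4.30 at day 7. Foxb2, a factor of the developing brain, had peaks of fold 4.28, 16.2 and 13.7 in the untreated, day 1 and day 7 lists and none over the window at day 28. The Foxd3 window overlaps the edge of a wider site, and the Foxb2 window lies inside one. Both sites had a peak in all 4 lists, so the change concerns the letters shown and not the whole site. The start of Foxa3 was covered in every list, by peaks of fold 86.2, 82.6, 98.6 and 132, but their summits lay nearest to the neighbouring gene Sympk. They are therefore not counted among the Foxa3 regions below. The same holds for Foxm1, the mitotic forkhead factor, whose start lay within 1 kb of peaks of fold 33.9, 33.1, 67.2 and 51.7 that were linked to its neighbour Rhno1.

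At day 1 the Foxa genes mainly lost regions and the other forkhead genes both lost and gained them. A region was called lost when an untreated region overlapped no region of the later list by 1 bp or more, and gained when a later region overlapped no untreated one. Of 45 untreated regions at the Foxa genes, 26 (57.8%, exact 95% interval 42.2 to 72.3) were lost at day 1, beside 37.4% of all untreated regions and 37.1% of those within 50 kb of a protein-coding gene. Of 27 Foxa regions in the day 1 list, 3 (11.1%, 2.35 to 29.2) were gained, beside 52.4% of all day 1 regions and 49.9% of those within 50 kb of a gene. At the other forkhead genes 165 of 453 regions (36.4%, 31.98 to 41.0) were lost and 178 of 431 (41.3%, 36.6 to 46.1) were gained. The intervals of the Foxa and other shares did not overlap for either count. For losses the 2 intervals came within about 1 percentage point and overlapped under each of the 5 alternatives run on both sets, and for gains they overlapped with a common enrichment floor (1.38 to 34.7 against 25.2 to 36.8) and stayed apart under the other 4. The intervals cover counting error only, and regions of a gene share that gene and are not independent.

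The Foxa share lost at day 1 rested on Foxa2. Without Foxa2, an omission chosen after the data were seen, 7 of 19 Foxa regions (36.8%) were lost, close to the other forkhead genes. Foxa gains at day 1 were then 3 of 14 (21.4%, 4.66 to 50.8), an interval that overlapped that of the other forkhead genes. The split at the other genes depended on enrichment: with a common enrichment floor for the 4 lists, 80 of 260 day 1 regions (30.8%) were gained and 219 of 453 untreated regions (48.3%) lost, so losses outnumbered gains, while all regions went to 42.1% gained and 45.0% lost.

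**Figure D1:**
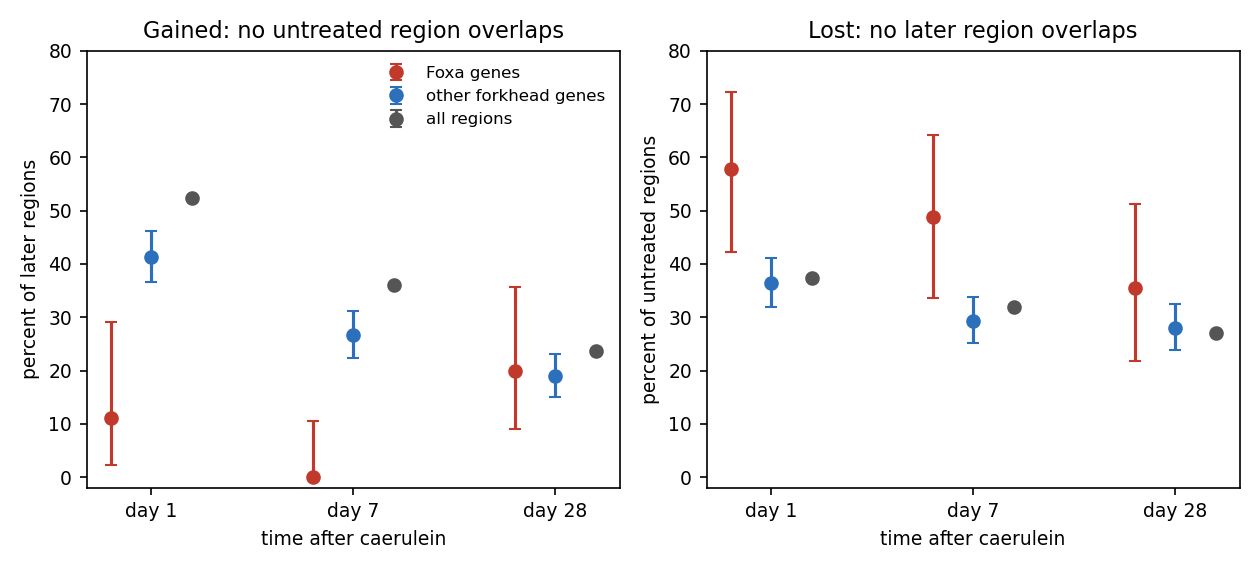
Percent of later regions gained (left) and percent of untreated regions lost (right) at days 1, 7 and 28 after caerulein for the Foxa genes, the other forkhead genes and all regions; bars are exact 95% intervals for counting error. At day 1 the Foxa point is 11.1% for gains and 57.8% for losses, against 41.3% and 36.4% at the other forkhead genes.

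Among the Foxa genes, Foxa2 had the largest change in number of regions. Its regions numbered 26 in the untreated list and 13, 17 and 29 at days 1, 7 and 28. The count was lowest at day 1 and was above the untreated count at day 28. Of the 26 untreated regions, 19, 11 and 5 were lost at days 1, 7 and 28, and gains numbered 0, 0 and 6. A count of 0 gained of 13 regions allows a share of up to 23.1% by the limit of 3 counts, and 0 of 17 allows 17.6%. The acinar and the duct marker regions, given above, were likewise fewest at day 1, and the part of either cell type in the Foxa2 counts was not tested.

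The most enriched Foxa2 region, chr2:148045556-148047360 over the gene's start, had folds of 39.0 in the untreated list and 8.04, 24.7 and 61.9 at days 1, 7 and 28. It was present in every list, and the day 1 list held the smallest of the values. A second region upstream of the start, chr2:148048394-148049270, had folds of 23.9, 13.1, 22.3 and 33.2 and was the strongest Foxa2 region of the day 1 list. When the overlapping regions of the 4 lists were merged, 7 Foxa2 regions were in all lists, with median folds of 13.7, 5.51, 10.5 and 19.3.

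The Foxa2 regions that dropped out at day 1 lay mostly downstream of the gene, as did most of its untreated regions. The strongest, chr2:148024224-148024869, with its summit 21013 bp downstream of the nearest annotated start, had folds of 13.8 in the untreated list, 6.98 at day 7 and 17.9 at day 28 and no peak at day 1. Its neighbour chr2:148025488-148025829 had 9.06 and 5.39 in the untreated and day 28 lists and no peak at days 1 and 7. The more distant chr2:147993024-147993308 had 8.07, 4.30 and 11.1 in the untreated, day 7 and day 28 lists. All of these were present again at day 28. Of the 19 Foxa2 regions lost at day 1, 8 were back at day 7 and 14 at day 28, and 4 were in no later list. The 6 Foxa2 regions gained at day 28 were weak and in no earlier list; the strongest, chr2:148035258-148035533 and chr2:148036920-148037227, had a fold of 5.11 each. The former abuts a region lost at day 28, chr2:148035001-148035241, with folds of 5.44 untreated and 4.57 at day 7.

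Foxa1 had fewer regions in each successive list. It had 14 regions in the untreated list and 12, 9 and 5 at days 1, 7 and 28. Losses against the untreated list numbered 4, 8 and 9, and of the 4 regions lost at day 1 none was back at day 7 or day 28. The strongest Foxa1 region, chr12:57546309-57547372 just upstream of the start, was nevertheless present throughout, with folds of 18.3, 12.9, 21.8 and 29.2. The regions that were missing at day 28 were weak ones: chr12:57542054-57542649 had folds of 5.27, 6.93 and 5.37 in the untreated, day 1 and day 7 lists, and chr12:57544185-57544380 had 4.78 in the untreated list only.

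All 3 Foxa regions gained at day 1 were at Foxa1, and none was in a later list. Of these, chr12:57508869-57509417 had a fold of 19.5 and its neighbour chr12:57509527-57510170 a fold of 16.1, and their summits lay 36945 and 36338 bp downstream of the Foxa1 start. The former exceeded every other Foxa1 region in the day 1 list. The third, chr12:57532464-57532691, had a fold of 4.10.

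Foxa3, which is best known from liver, had 5 regions in the untreated list and 2, 7 and 6 at days 1, 7 and 28. Both regions that persisted lie past its end: chr7:19009825-19011000 had folds of 33.6, 9.93, 21.0 and 49.1, and chr7:19012102-19012786 had 31.3, 10.7, 23.9 and 53.6. A region inside the gene, chr7:19020435-19020689, had 5.77 in the untreated list and 7.10 at day 28 and no peak between. The 7 regions at day 7 were pieces of sites already open in the untreated list: none was gained, and 5 of them fell into the 2 merged regions past the gene's end.

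**Figure D2:**
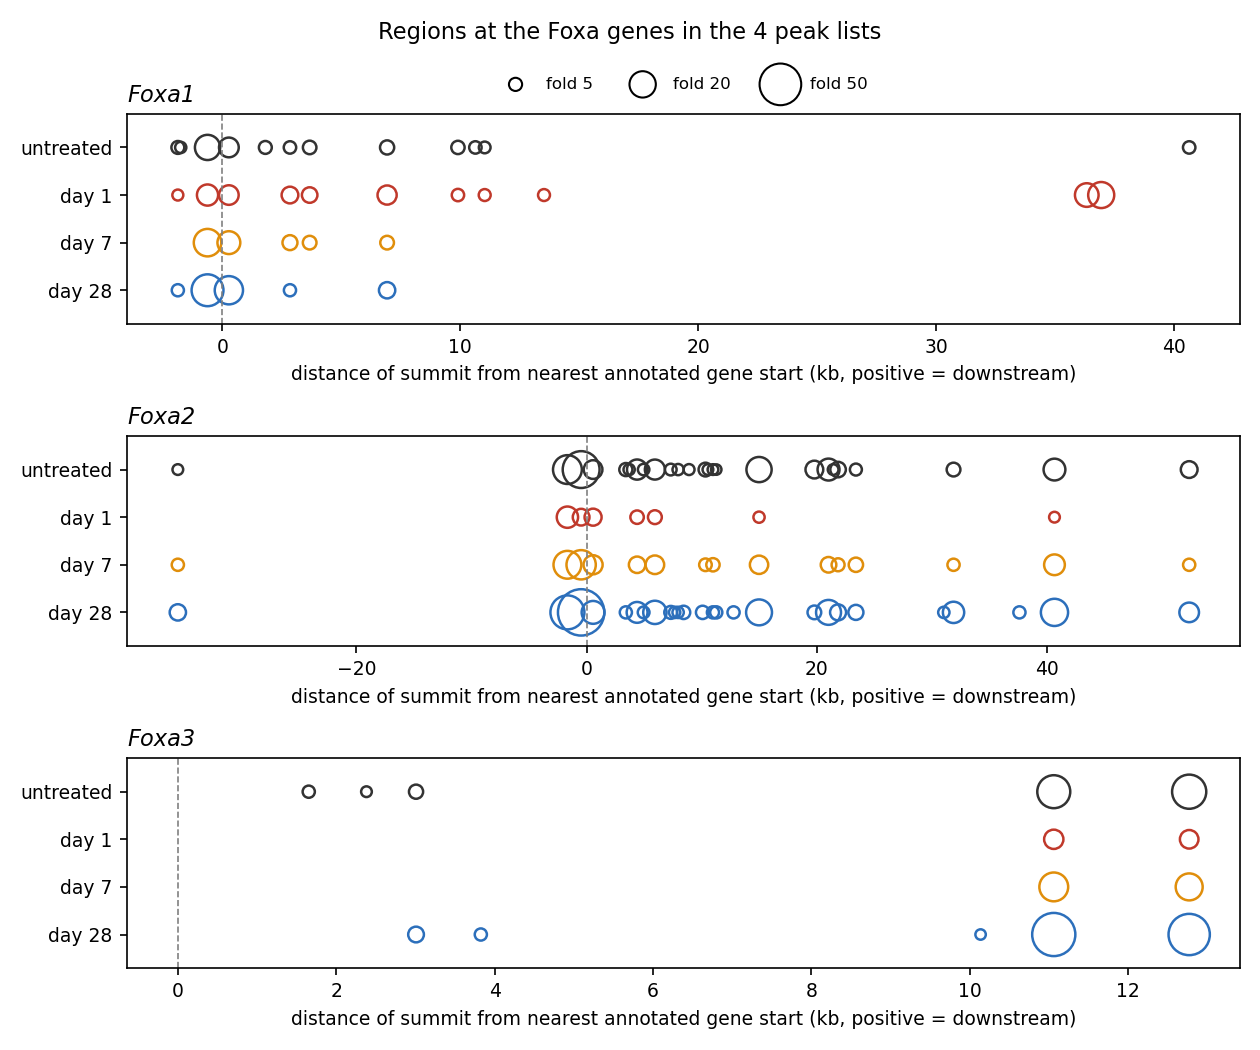
Merged regions at Foxa1, Foxa2 and Foxa3 in each of the 4 lists, placed by the distance of the summit from the nearest annotated gene start in kb; circle area is the authors' fold enrichment. The downstream Foxa2 circles thin out at day 1 and return by day 28, and the strong pair far downstream of Foxa1 occurs at day 1 alone.

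At day 7 the Foxa genes held no gained region. Of 33 Foxa regions 0 were gained, which allows a share of up to 9.09% by the limit of 3 counts, beside 36.0% of all day 7 regions and 33.9% of those near a gene, and 22 of 45 untreated regions (48.9%, 33.7 to 64.2) were lost, beside 32.0% and 31.8%. At the other forkhead genes 107 of 402 regions (26.6%, 22.4 to 31.2) were gained and 133 of 453 (29.4%, 25.2 to 33.8) lost. The exact interval for gains (0 to 10.6) lay below that of the other forkhead genes, and that for losses overlapped it narrowly. With a stricter threshold, a −log10 q of at least 5, 2 of 29 Foxa regions were gained and the intervals for gains overlapped (0.846 to 22.8 against 22.1 to 31.8).

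By day 28 the Foxa and other genes had similar shares of gains. At the Foxa genes 8 of 40 regions (20%, 9.05 to 35.6) were gained, beside 23.7% of all day 28 regions and 23.0% of those near a gene, and 16 of 45 (35.6%, 21.9 to 51.2) were lost, beside 27.1% and 26.7%. At the other forkhead genes 73 of 386 regions (18.9%, 15.1 to 23.2) were gained and 127 of 453 (28.0%, 23.9 to 32.4) lost. The 2 sets' intervals overlapped for both counts, which does not show that the sets were alike. Without Foxa2 the Foxa share lost was 57.9% (11 of 19), since Foxa1 gave 9 of the 16 losses.

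No gained Foxa region was in more than 1 later list. All 8 Foxa regions gained at day 28 were in neither the day 1 nor the day 7 list. That count was largely set by the earlier ones: the Foxa genes gained 0 regions at day 7, and their 3 gains at day 1 were at Foxa1, which gained 0 at day 28. It is therefore not compared with the shares elsewhere, which were 40 of 73 (54.8%) at the other forkhead genes and 36.4% of all regions gained at day 28. Of the 3 Foxa regions gained at day 1, 0 were present at day 7 or 28, a number too small to set beside a share. At the other genes 61 of 178 (34.3%) were still present at day 7 and 23 (12.9%) at day 28, beside 37.3% and 14.1% of all. Of regions lost at day 1, 15 of 26 Foxa regions (57.7%) and 97 of 165 others (58.8%) were back at day 28, beside 51.0% of all, with exact intervals of 36.9 to 76.6 and 50.9 to 66.4 for the 2 sets. Foxa regions lost at day 1 had a median untreated fold of 4.20 against 11.2 for those kept, and at the other genes the medians were 3.95 and 5.27.

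By position, inside the gene spans 5 of 13 untreated Foxa regions were lost at day 1, within 10 kb outside them 11 of 20, and from 10 to 50 kb 10 of 12. Foxa2 gave 11 of the 12 in the last zone and 9 of the 10 losses there, and without it the counts were 5 of 11, 1 of 7 and 1 of 1. At the other forkhead genes the shares lost were 39.1%, 28.8% and 37.0% in these zones, beside 38.2%, 31.8% and 38.8% over all genes.

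**Figure D3:**
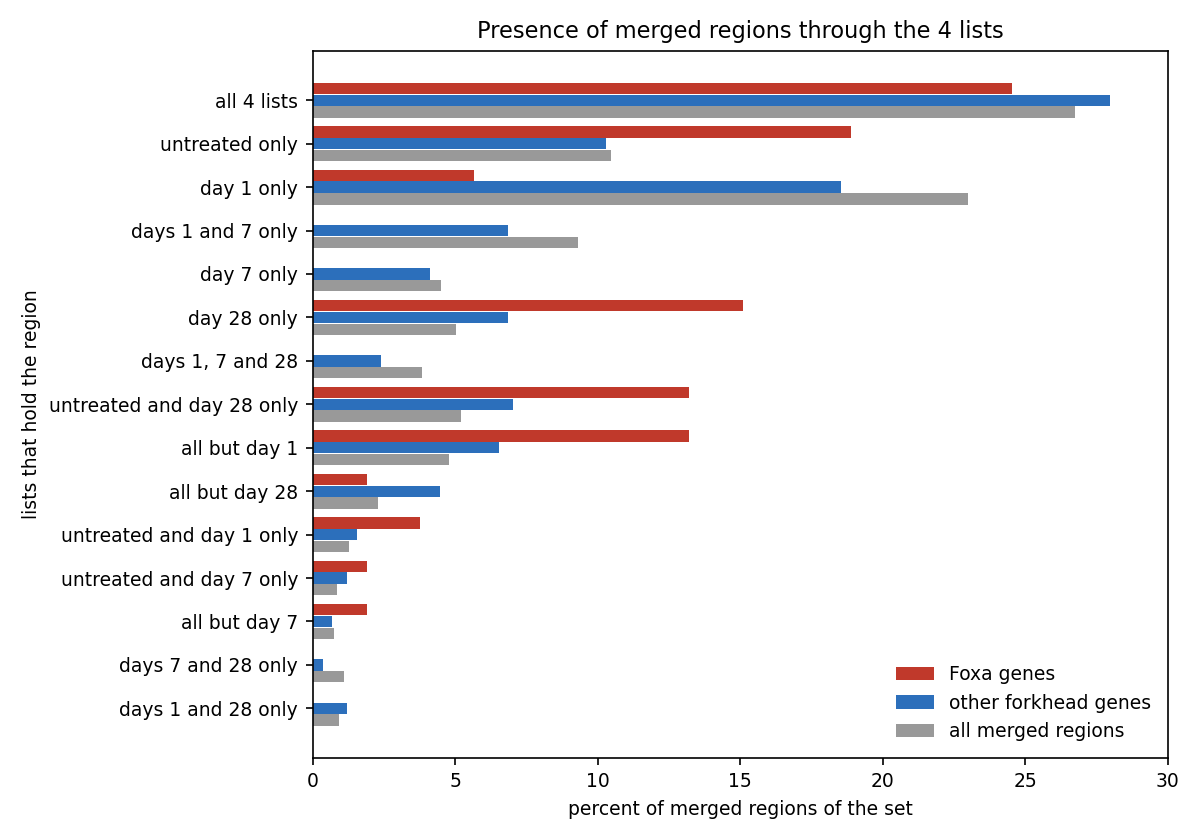
Share of merged regions held by each combination of the 4 lists, in percent of the 53 merged Foxa regions, the 583 at other forkhead genes and all 223972. Regions of day 1 alone make up 5.66% of the Foxa set, 18.5% of the other set and 23.0% of all, and regions of day 28 alone 15.1%, 6.86% and 5.02%.

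The FOXO genes lost about the share of regions that was lost over all regions. FOXO factors switch on stress resistance, cell cycle arrest and metabolic genes when insulin and growth factor signalling is low. Their 4 genes had 128 regions in the untreated list and 113, 108 and 120 at days 1, 7 and 28. They lost 46, 41 and 32 of the untreated regions (35.9%, 32.0% and 25%, beside 37.4%, 32.0% and 27.1% of all). Gains were 38, 23 and 32 (33.6%, 21.3% and 26.7%, beside 52.4%, 36.0% and 23.7% of all), below the share over all regions at days 1 and 7. Foxo3 had 65, 50, 51 and 71 regions, and 21 of its 71 regions at day 28 were gained, more than at any other forkhead gene. Its gene start peak had a fold of 132 in the untreated list and 127, 154 and 226 at days 1, 7 and 28.

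Foxo1, the main FOXO factor of insulin-responsive tissues, had 25, 29, 28 and 27 regions and 14, 10 and 10 gains. Of its 10 gained regions at day 28, 6 had been present at both earlier times, among them chr3:52376845-52377472 with folds of 10.6, 15.8 and 6.24 at days 1, 7 and 28, and chr3:52242572-52242864 with 9.14, 9.40 and 7.38. Foxo6 had 37, 33, 27 and 21 regions, the lowest count at day 28, with 16 of its 37 untreated regions lost at day 7 and 16 lost at day 28. Foxo4 had 1, 1, 2 and 1 regions with no gain or loss.

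The 30 genes of the PI3K, AKT and FOXO axis, a list of receptors, kinases, 14-3-3 and target genes, had 465 regions in the untreated list and 514, 464 and 468 at days 1, 7 and 28. Gains were 43.4%, 30.6% and 26.7% of the later regions and losses 36.6%, 33.3% and 22.4% of the untreated ones. Over all regions the gains were 52.4%, 36.0% and 23.7% and the losses 37.4%, 32.0% and 27.1%, so the list lay near or below the background except for small excesses in day 7 losses and day 28 gains. Igf1r, the IGF1 receptor, gained 35 of its 74 day 1 regions and lost 27 of its 67 untreated ones. For Pik3r1, the regulatory subunit of PI3K, these counts were 22 of 59 and 12 of 55. Ywhaz, a 14-3-3 protein that binds phosphorylated FOXO, gained 21 of 39 regions at day 1 and 30 of 51 at day 7.

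The broadly expressed factors had 177, 179, 170 and 167 regions, in the 4 lists. Gains were 82, 52 and 31 (45.8%, 30.6% and 18.6%, beside 52.4%, 36.0% and 23.7% of all), and losses 80, 65 and 41 (45.2%, 36.7% and 23.2%, beside 37.4%, 32.0% and 27.1%). Foxn3, a repressor with the most regions of any member (its span covers 373587 bp), had 85, 89, 65 and 85 regions. At day 1, 45 of its 89 regions were gained and 46 of its 85 untreated ones lost, beside 52.4% and 37.4% of all, and 32 of the 46 were back at day 28. The equal counts at both ends were not of identical regions. At day 28, 18 of 85 regions were gained and 21 of the 85 untreated ones lost, beside 23.7% and 27.1% of all. Strong Foxn3 regions went missing at day 1 alone: chr12:99374083-99374816 had folds of 18.9, 5.64 and 22.7, and chr12:99529367-99530596 had 16.5, 9.67 and 23.3, in the untreated, day 7 and day 28 lists. Conversely chr12:99229484-99230284 was absent from the untreated list and had folds of 20.6, 14.2 and 3.69 at days 1, 7 and 28. Without Foxn3, an omission chosen after the data were seen, the other genes' losses at day 7 were 25% (92 of 368).

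Foxk1, which represses autophagy and promotes glycolysis genes, had 29, 36, 35 and 25 regions with 14, 13 and 5 gains. Its region chr5:142456042-142458392 had folds of 23.9, 8.33 and 4.26 at days 1, 7 and 28 and no untreated peak. Foxp4 had 33, 21, 29 and 25 regions, with 16 losses at day 1 of which 11 were back at day 28. Its region chr17:47853794-47854169 had folds of 19.7 and 12.6 at days 1 and 7 only. Foxn2 had 11, 7, 12 and 10 regions, and its strongest loss at day 1, chr17:88421092-88421688, had 14.5, 6.45 and 25.3 in the other 3 lists.

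Foxm1, which drives genes of the G2 and M phases, had no region of its own in the untreated list or at day 28 and 2 each at days 1 and 7. The stronger, chr6:128364496-128365260 within the gene, had folds of 26.5 at day 1 and 3.49 at day 7. It was in the lists of those days only. Foxj2 and Foxj3 had 5, 8, 9 and 5 and 4, 6, 5 and 7 regions, Foxk2 had 2, 1, 1 and 1, and Foxp2 had 8, 9, 12 and 9, including chr6:15321443-15321941 with folds of 7.72, 8.86 and 7.38 at days 1, 7 and 28 and no untreated peak.

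The mesenchymal and vascular factors had 62, 53, 51 and 46 regions. Gains were 37.7%, 27.5% and 13.0% of the later regions, beside 52.4%, 36.0% and 23.7% of all regions, and losses 21.0%, 21.0% and 33.9% of the untreated ones, beside 37.4%, 32.0% and 27.1%. Losses (13, 13 and 21) exceeded gains (20, 14 and 6) at day 28 only, as they did over all regions. Foxf2 and Foxl1, factors of gut and other visceral mesenchyme, gained 7 regions each at day 1, and at day 28 Foxf2 had lost 5 of 10 and Foxl1 4 of 11. Most of the 5 Foxf2 losses were pieces of sites still open at day 28. After merging, 1 Foxf2 region was in the untreated list alone and 3 were in all 4 lists. Foxc1, a factor of mesoderm, vessels and eye, had 8, 9, 8 and 11 regions. Foxf1 had 6, 3, 6 and 2 regions, Foxd1 7, 6, 5 and 5, and Foxc2 3, 3, 2 and 2. Foxq1, whose place in this group was assigned and not tested in these data, had 9, 6, 7 and 6 and gave 4 of the 13 losses at day 1. At Foxs1, known from sensory neurons and pericytes, the count of 8 in the untreated list and 2 at day 1 was not a loss: all 8 untreated regions overlapped day 1 regions, and the stronger of the 2 Foxs1 regions at day 1 had a fold of 87.8. The fibroblast and endothelial marker regions given above changed across the same lists, and their part in these counts was not tested.

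The factors of other lineages had 86, 86, 73 and 53 regions. They gained 38, 18 and 4 regions (44.2%, 24.7% and 7.55%, beside 52.4%, 36.0% and 23.7% of all) and lost 26, 14 and 33 (30.2%, 16.3% and 38.4%, beside 37.4%, 32.0% and 27.1%). Foxb2 had 5, 9, 7 and 2 regions, with the strongest gained region of any member at day 1, chr19:16898080-16899472, of fold 31.5 at day 1 and 19.9 at day 7 and in no other list. Foxd2 had 12, 10, 10 and 5. Foxj1, which directs motile ciliogenesis, had 10, 4, 7 and 9, with 5 losses at day 1 of which 4 were back at day 28. Foxn1, the thymic epithelial factor, had 12, 7, 9 and 7. Foxl2, a factor of the ovary, had 10, 10, 5 and 7.

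Counted by gene, 17 of the 40 other forkhead genes had more gains than losses at day 1 and 15 more losses than gains. At day 7 these numbers were 14 and 13, and at day 28 they were 4 and 24. Counted by region, these 40 genes had 178 gains and 165 losses at day 1, 107 and 133 at day 7, and 73 and 127 at day 28. Over all regions, gains outnumbered losses at days 1 and 7 (86230 against 52526 and 52272 against 44918), and losses outnumbered gains at day 28 (37988 against 30910). The region counts of the other forkhead genes thus had the same direction at days 1 and 28 and the opposite one at day 7. Counts by gene over all protein-coding genes are not given here. All 3 Foxa genes had fewer regions than in the untreated list at day 1. Of all 43 genes, 36 had a region in every list, and Foxp3, Foxr1 and Foxr2 had none in any list. Foxp3 is the factor of regulatory T cells. Foxb1, Foxd4, Foxi2 and Foxm1 had regions after caerulein but not in the untreated list.

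**Figure D4:**
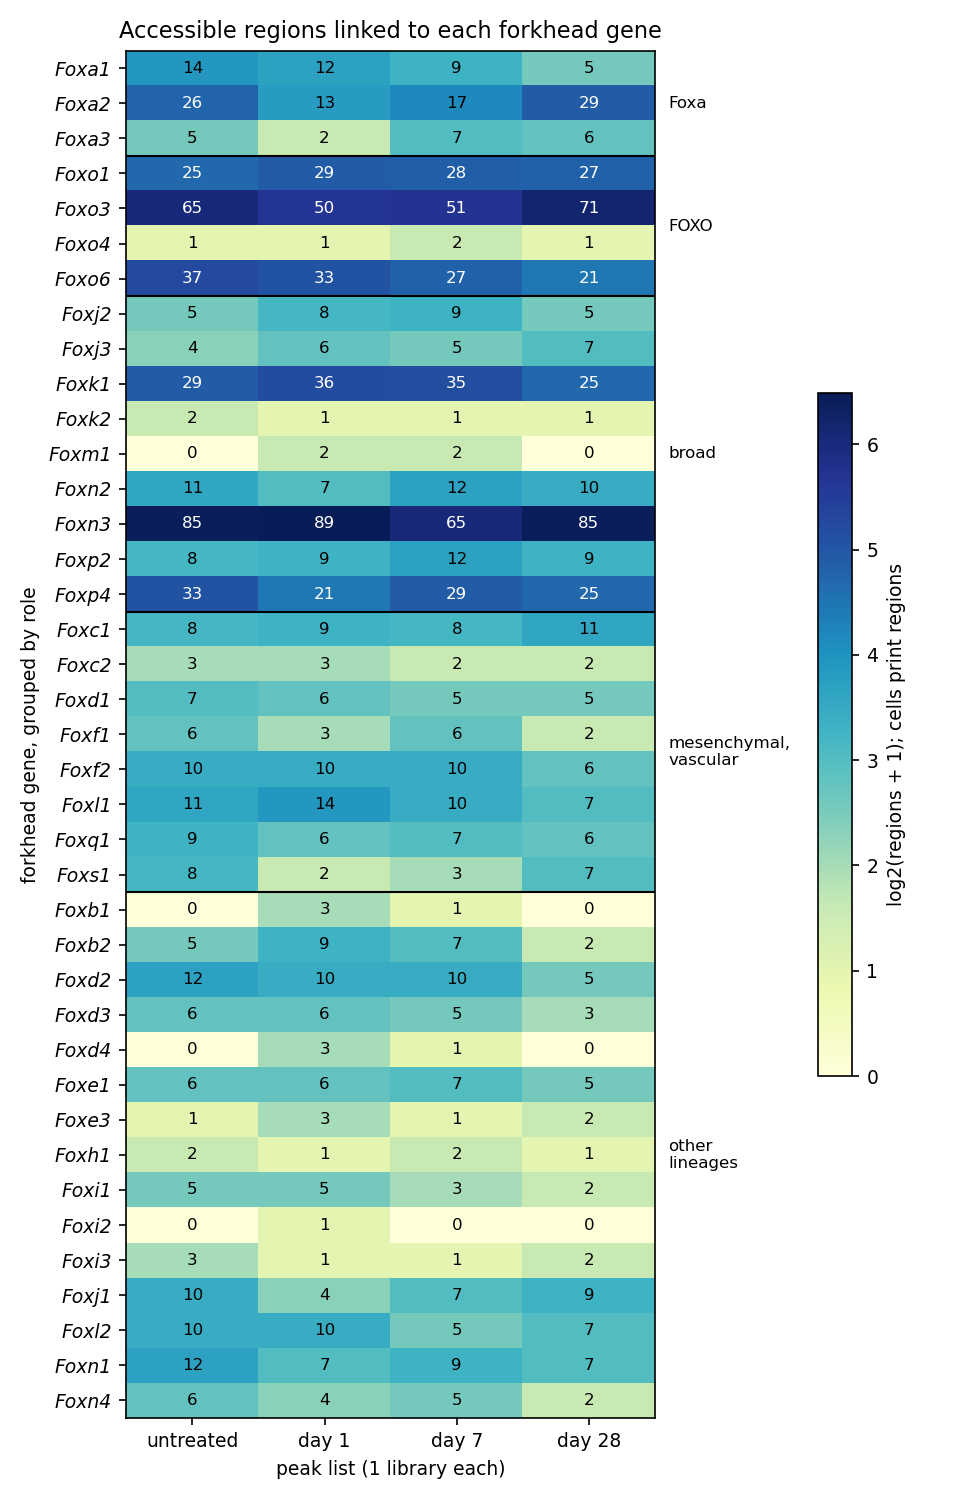
Number of regions linked to the forkhead genes reported here that had at least 1 region, by list and grouped by role; color is log2 of the count plus 1 and each cell prints the count. The row of Foxa2 runs 26, 13, 17 and 29, that of Foxa1 14, 12, 9 and 5, and that of Foxn3 85, 89, 65 and 85.

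A list of other endoderm and pancreas factors had 316 regions over 20 genes in the untreated list and 231, 289 and 332 at days 1, 7 and 28. Whether these factors act together with Foxa proteins was not tested. Of the untreated regions, 57.0%, 39.9% and 22.2% were lost at days 1, 7 and 28, next to 57.8%, 48.9% and 35.6% at the Foxa genes and 37.4%, 32.0% and 27.1% of all. Nr5a2, a nuclear receptor of acinar cells, lost 36 of 47 regions at day 1, Gata4, a zinc finger factor of endoderm, 35 of 44, and Ptf1a, the acinar bHLH factor, 14 of 17. Hnf4a, a nuclear receptor of liver and gut, still lacked 14 of 25 at day 28. Gains were 35.5%, 24.2% and 24.7% of the later regions, beside 52.4%, 36.0% and 23.7% of all. Glis3, a factor of endocrine cells and ducts, gave 46 of the 82 gains at day 1.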

How the data were processed

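ATAC-seq peak lists of 4 libraries, 1 each from untreated epithelium and days 1, 7 and 28 after caerulein, were used; titles of the samples gave the groups. Per the submitters' processing notes, the build was GRCm38 (mm10) and the tools were MACS2 2.1.0.20150731, Bowtie2 2.2.6, deepTools, SAMtools and cutadapt. Not given in the sources used here are the tools' roles and options, how reads were filtered, whether they were shifted to where Tn5 cut, and read totals. Each deposited list gives a fold enrichment (a ratio of pileup to background), a −log10 p and −log10 q and a score that equals 10 times the −log10 q, as computed by the authors. The lowest −log10 q was 1.99, 1.89, 2.31 and 1.91 in the untreated, day 1, day 7 and day 28 lists.

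Regions on chromosomes 1 to 19 and X were linked by summit to the nearest RefSeq GRCm38.p6 protein-coding gene span within 50 kb, with ties (6 summits) going to the shorter span. Overlap counted from 1 bp. Exact (Clopper-Pearson) 95% intervals cover counting error only. The limit given for 0 is 3 counts of the total; the plotted interval for 0 is the exact one and is slightly wider. Overlap and linking were tested on simulated data. This gene family, the motifs and the lists were chosen with earlier results of these data known. Named genes were all Foxa genes and up to 6 others with the most gained or lost regions per comparison, each remaining gene with a region being placed in a role group; named regions were the 5 strongest gained or lost per set and comparison and the strongest of each Foxa gene, of which a selection is printed. The own values of 1 member gene, which counts in the totals, are not reported here. Python 3.11.15, pandas 2.3.3, numpy 2.4.6, scipy 1.17.1 and matplotlib 3.10.9 were used. Alternatives were 50% overlap, links within 10 kb, all regions within 50 kb, a −log10 q of at least 5, a common enrichment floor, and leaving out Foxa2 or Foxn3.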

Additional observations from a re-analysis of the deposited data

How the results depend on the processing

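The shares gained and lost moved outside the main interval in few settings. Leaving out Foxa2 or Foxn3 was chosen after seeing the data. With 50% overlap 1 of 12 shares moved, the day 1 loss at the other forkhead genes (41.3%). With the common enrichment floor 2 moved, their day 1 gain (30.8%) and loss (48.3%). With links within 10 kb, with all regions within 50 kb whichever gene was nearest, and with a −log10 q of at least 5, no share moved. Without Foxa2 the Foxa loss was 36.8% at day 1 and 57.9% at day 28, and without Foxn3 the other genes' loss at day 7 was 25%.

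Counts changed by over 1.5 times in these cases. Foxa gains at day 1 were 3, against 8 of 53 with all regions within 50 kb and 1 of 23 within 10 kb. Foxa gains at day 7 were 0, against 1 with 50% overlap, 6 of 58 with all regions within 50 kb and 2 of 29 with the stricter q. Foxa gains at day 28 were 8, against 5 within 10 kb and 2 without Foxa2. Foxa losses at day 1 were 26, against 16 within 10 kb and 7 without Foxa2, and at day 7 they were 22, against 11 without Foxa2. Other gains at day 1 were 178, against 80 with the common floor, and other losses of 165, 133 and 127 became 270, 226 and 203 of 689 with all regions within 50 kb. The cause of these changes was not tested. No paired analysis was possible because each group is 1 library, and for the same reason no library could be left out. Background pileups, which track depth, were 5.07, 5.35, 2.72 and 2.52 in the untreated, day 1, day 7 and day 28 libraries, and the lowest pileup listed was 14, 14, 10 and 9; the part of depth in the counts was not tested.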
